A study of Homo sapiens with 6 samples.

Results

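The genes described here are the long intergenic noncoding RNAs (lncRNAs) with a LINC symbol that were detected in 12Z cells. Members were rows of the deposited gene count tables whose symbol is LINC followed by digits and which held at least 10 raw counts in at least 3 of the 6 libraries. Of 60660 gene rows, 2271 had such a symbol, and 179 of these (7.88%) met the count rule, whereas 1470 were at 0 in all 6 libraries. Members were thus chosen by their raw counts, so the levels below describe them and were not tested. 12Z is an established epithelial cell line from endometriosis, a disorder in which tissue resembling the lining of the uterus grows outside it. The control cells, 3 libraries, received a non-targeting siRNA, and the knockdown cells, also 3 libraries, received siRNA LINC01133a at 10 nM. All were lysed 72 h after transfection, and poly-A RNA was sequenced. The comparison asks which transcripts change when LINC01133, itself a LINC RNA, is depleted. A single siRNA was sequenced, so depletion of LINC01133 cannot be told apart from other effects of that siRNA. The study describes the libraries as biological replicates, and nothing in the sample labels says that they came from separate cultures, so p-values measure the spread between these libraries.

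LncRNAs of this kind are transcribed by RNA polymerase II from their own promoters, and most are capped, spliced and polyadenylated like mRNA, although their levels are usually lower and more restricted to a tissue. Some act on genes near their own locus, others bind proteins or microRNAs elsewhere in the cell, and a few hold short reading frames that are translated. LINC symbols are given to intergenic lncRNA genes that have no other descriptive name, so the members form a naming class and not a pathway.

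The sequences below are those that the knockdown rests on. The antisense strand of siRNA LINC01133a, which pairs with the target, is shown first, and the capitals mark its seed, bases 2 to 8 from the 5′ end.
siRNA LINC01133a antisense strand: uCCAUUCUcagguaacuucaa
Its target in LINC01133 lies on the plus strand of GRCh38 at chr1:159976669-159976687, in exon 3 of transcript LINC01133-204, and the capitals mark the 19 bases that pair with the siRNA.
LINC01133: ttcttGAAGTTACCTGAGAATGGAtccatt
Of the members tested, none but LINC01133 held this 19-base sequence. The 8 letters AGAATGGA, the complement of the first 8 bases of the antisense strand, were found in the annotated transcripts, read on the sense strand, of 31 of the 172 members tested (18.0%) and of 170 of 1488 other lncRNA genes (11.4%). Among the 34 members called below, 5 held them, namely LINC01133, LINC01119 and LINC02606, which were lower in knockdown cells, and LINC00265 and LINC01278, which were higher. The matches outside LINC01133 are shown because they lie in called members, with the 8 letters in capitals, at chr2:46855503-46855510 on the plus strand, chr1:9425894-9425901 on the minus strand, chr7:39759863-39759870 on the plus strand and chrX:63239153-63239160 on the minus strand, in this order.
LINC01119: gttggggaggcAGAATGGAgtgagaatccc
LINC02606: tcctcatctgcAGAATGGAgatgataatat
LINC00265: actaaagagcaAGAATGGAccacc
LINC01278: gtaaaaatgggAGAATGGAgagatagaaaa
The median log2 fold change of the 31 members with these letters was 0.16, and that of the 141 without was 0.091. The 7 letters AGAATGG, which include every 8-letter match, were in 61 members, whose median log2 fold change was 0.077, and absent from 111, whose median was 0.16. The median exon length of the 61 was 5386 bases and that of the 111 was 3252 bases. A match describes the letters only and is not evidence that the siRNA paired there.

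Each library held between 27742562 and 37551194 counts on genes, and the members together took 0.0653% to 0.0686% of them, with no separation between control and knockdown. Keratins 8, 18 and 19 were among the abundant RNAs of 12Z cells. By the cutoffs given below, 4 of 6 epithelial markers were called lower after knockdown (66.7%, beside 6.43% of all genes) and none was called higher. They were KRT7, KRT8, KRT19 and CDH1. KRT7, at -0.587, was not called without control replicate 1 or knockdown replicate 2 or 3. Neither KRT7 nor KRT8 was called with library size alone as the scaling. The study states that further measurements bore out the loss of CDH1 but not that of KRT7 or KRT19. By adjusted p alone 5 were lower (beside 25.0% of all genes), with KRT18 at a log2 fold change of -0.55. The summed normalized count of the 6 markers was 199879 to 210735 in control and 127683 to 133678 in knockdown libraries. The stromal genes VIM, DCN, LUM, PDGFRB, COL1A1 and COL1A2 were all detected too, with sums of 154040 to 171664 and 135172 to 143008. Of 5 leukocyte markers, 3 stayed under 10 counts in every library, among them CD3E, which was at 0, but CD14 was detected and called lower, with 1706 ± 102 and 863 ± 32.8 (SD, n = 3 each; log2 fold change -0.98), and PTPRC had 23.8 ± 4.24 and 20.4 ± 5.33. The leukocyte sums were 1618 to 1825 in control and 847 to 906 in knockdown libraries. The part of these marker shifts in the LINC results was not tested. Values below are normalized counts, meaning counts on the sense strand scaled to a common library size, and errors of log2 fold changes are standard errors. A gene was called where the fold change was over 1.5 and the p of the quasi-likelihood F-test in edgeR, after Benjamini-Hochberg correction across the 15155 genes in the fit, was under 0.05.

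LINC01133 had the largest change of all members. It lies on the plus strand of GRCh38, the build of all positions given here, at chr1:159958035-159984750. Its normalized counts were 812.9, 817.5 and 837.0 without the targeting siRNA and 129.6, 131.0 and 138.4 with it. No knockdown library came near the control range. The level fell from 822 ± 12.8 to 133 ± 4.68 (SD, n = 3 each), which left 16.2% of the control level, with a log2 fold change of -2.63 ± 0.070 (SE, edgeR adjusted p = 3.5e-11). LINC01133 had the seventh highest control count of the 179 members. It starts close to SLAMF9, which is transcribed in the other direction and was at 0 in all 6 libraries. Within 500 kb of LINC01133, 12 of 27 protein-coding genes were tested. Of these 12, 1 was called, beside 10.9% of all protein-coding genes tested. It was IGSF9, an immunoglobulin superfamily adhesion protein, which fell from 851 ± 99.6 to 560 ± 49.8 (SD, n = 3 each; log2 fold change -0.61 ± 0.085, edgeR adjusted p = 5.6e-05). It was not called without control replicate 1, at -0.52, without knockdown replicate 1, at -0.58, or without knockdown replicate 2, at -0.57.

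Of the 172 members tested, 34 were called (19.8%), 20 of them higher and 14 lower in knockdown cells. Across all genes tested, 11.7% were called, 5.3% higher and 6.43% lower. The members' share called higher was thus 11.6% and the share called lower 8.14%. The split by direction was not the same at all levels, a difference that was not tested. Among members with a mean normalized count of 30 or more, 8 were higher and 11 lower, whereas below 30 there were 12 higher and 3 lower. Of the 4 members that met the count rule only through the knockdown libraries, 3 were among the 12. As shares below 30, 14.5% of members were called higher and 3.61% lower. Other lncRNA genes below 30 were alike, with 12.4% and 4.48%, whereas protein-coding genes there had 8.40% and 14.7%. Without the scaling factors for library composition, 25 members were called higher and 12 lower, so the split shifted from 58.8% to 67.6% higher. This shift was not particular to the members, since for all genes the split moved from 45.2% to 55.9% higher. Where 10 counts were required in every library, only 128 members were tested. The split was then 11 higher and 12 lower, or 47.8% higher.

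**Figure D1:**
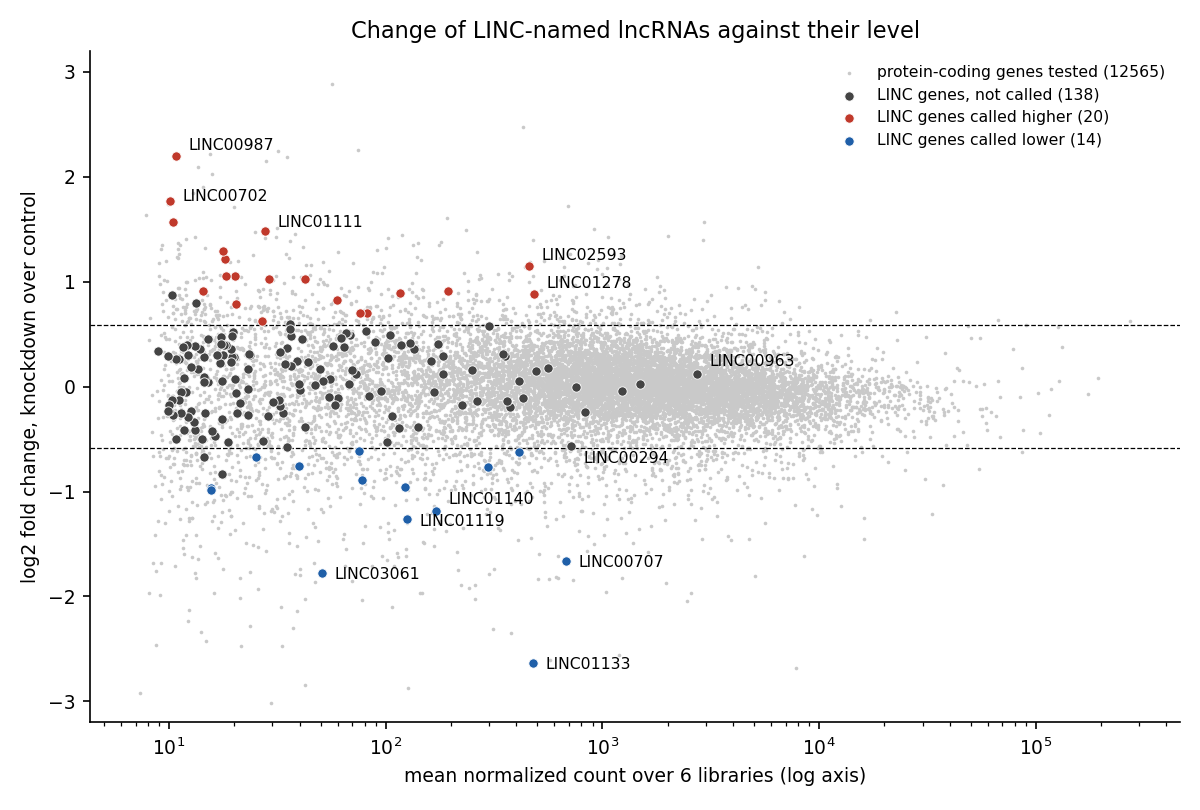
Log2 fold change of knockdown over control against the mean normalized count over the 6 libraries (log axis), with each tested LINC gene as a large point and each tested protein-coding gene as a small grey point. Dashed lines mark a fold change of 1.5. LINC01133 at -2.63 and LINC00707 at -1.66 lie far below the other abundant LINC genes, while the largest rises, LINC00987 and LINC00702, have low counts.

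LINC00707, LINC01119, LINC01140, LINC00511 and LINC03061 followed LINC01133 among the called members of higher count that fell. LINC00707 (chr10:6779549-6842906), which has been studied as a growth-promoting RNA in carcinomas, held 963.3, 1202 and 920.9 normalized counts in control libraries and 344.9, 332.9 and 292.6 in knockdown libraries. This was the most abundant member to be called, and before knockdown it was above LINC01133. Its log2 fold change was -1.66 ± 0.099 (SE, n = 3 each, edgeR adjusted p = 3.0e-08).

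LINC01119 (chr2:46816697-46859009), whose nearest protein-coding gene is SOCS5, a suppressor of cytokine signalling, had 181.7, 182.4 and 165.7 normalized counts in control and 73.7, 77.7 and 68.0 in knockdown libraries. LINC01140 (chr1:87129765-87169198) had 240.4, 243.2 and 224.8 in control and 99.1, 106.8 and 106.6 in knockdown libraries. In both, the spread within a group was small against the gap between the groups. Their log2 fold changes were -1.27 ± 0.12 and -1.18 ± 0.10 (SE, n = 3 each, edgeR adjusted p = 1.6e-06 and 7.4e-07).

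LINC00511 (chr17:72290091-72640472), an RNA often raised in cancers and reported to bind the histone methyltransferase EZH2, held 164.7, 159.9 and 163.7 normalized counts in control and 83.0, 85.4 and 82.8 in knockdown libraries. Relative to the mean, its groups had the smallest SD of the 34 called members. The log2 fold change was -0.96 ± 0.11 (SE, n = 3 each, edgeR adjusted p = 1.1e-05).

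LINC03061 (chr13:109269634-109278512) was far more variable, with 72.9, 121.6 and 41.4 normalized counts in control and 16.1, 31.1 and 21.5 in knockdown libraries. The groups did not overlap, but the control libraries spread over a wider range than the distance between the group means. The log2 fold change of -1.77 ± 0.36 (SE, n = 3 each, edgeR adjusted p = 0.0012) ranged from -2.07 to -1.34 when 1 library was left out.

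LINC01358, LINC01914, LINC00689, LINC01963 and LINC00842 fell by less. LINC01914, whose nearest protein-coding gene encodes the secreted kinase PKDCC, went from 374 ± 65.5 to 220.5 ± 22.3 normalized counts (SD, n = 3 each; log2 fold change -0.76 ± 0.12, edgeR adjusted p = 0.00019). LINC01358 went from 101 ± 18.0 to 54.1 ± 1.26 (log2 fold change -0.89 ± 0.16), and LINC00689 from 49.9 ± 2.71 to 29.2 ± 4.05 (-0.76 ± 0.19). In all 3 the libraries of the groups were separate. LINC01963, with 499.5 ± 75.3 and 323 ± 15.0 normalized counts, and LINC00842, with 90.4 ± 6.52 and 59.6 ± 8.30, had log2 fold changes of -0.62 and -0.61, just past the fold cutoff. LINC01963 was not called without control replicate 2, at -0.50, or without knockdown replicate 2, at -0.58. LINC00842 was not called without control replicate 1, at -0.58, or without knockdown replicate 1, at -0.49.

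Among the called members of higher count that rose, LINC02593 and LINC01278 were the most abundant. LINC02593 (chr1:916865-921016), which starts near SAMD11 and is transcribed away from it, had 360.5, 212.8 and 278.7 normalized counts in control and 637.2, 615.4 and 653.3 in knockdown libraries. LINC01278 (chrX:63222993-63561095) had 355.8, 331.1 and 326.3 in control and 588.1, 624.2 and 658.9 in knockdown libraries. Both were higher in every knockdown library than in any control library, and in LINC02593 the spread lay almost wholly in the control group. The log2 fold changes were 1.15 ± 0.13 and 0.88 ± 0.070 (SE, n = 3 each, edgeR adjusted p = 7.4e-06 and 4.1e-07).

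LINC00265 (chr7:39733430-39793092) rose from 136.3, 149.8 and 117.1 normalized counts in control to 239.0, 254.3 and 263.1 in knockdown libraries. LINC01089 (chr12:121795267-121803906), also called LIMT and described as an inhibitor of metastasis, rose from 93.7, 75.4 and 73.6 to 145.7, 139.8 and 170.1. Neither gene's groups overlapped. The log2 fold changes were 0.91 ± 0.11 and 0.89 ± 0.14 (SE, n = 3 each, edgeR adjusted p = 1.4e-05 and 0.00013). LINC01089 overlaps RHOF on the same strand, so reads in the shared stretch could have been left out of both counts.

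LINC00886 went from 27.9 ± 2.81 to 57.2 ± 9.93 normalized counts (SD, n = 3 each; log2 fold change 1.02 ± 0.20). LINC01475, which starts near the homeobox gene NKX2-3 and is transcribed away from it, went from 42.7 ± 4.88 to 75.9 ± 7.54 (0.83 ± 0.16), and LINC02604 from 57.9 ± 4.32 to 94.6 ± 10.6 (0.70 ± 0.15). LINC00467, which holds a reading frame reported to encode the mitochondrial micropeptide ASAP, went from 62.7 ± 5.71 to 102 ± 5.74 (0.70 ± 0.14, edgeR adjusted p = 0.00082). Each of these 4 was higher in all 3 knockdown libraries than in all 3 control libraries, and each was called in every leave-out.

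**Figure D2:**
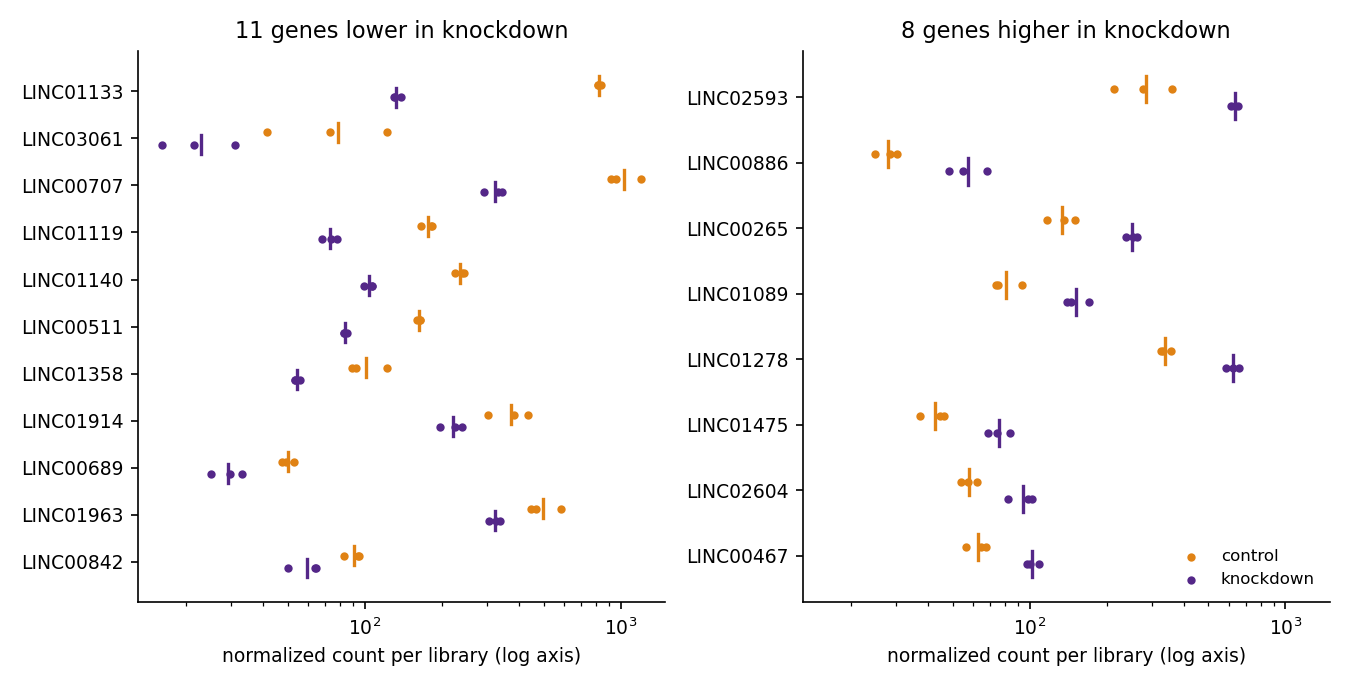
Normalized count (log axis) in each of the 3 control and 3 knockdown libraries for the called LINC genes with a mean of 30 or more, 11 lower at left and 8 higher at right, with points for libraries and vertical ticks for group means. No gene's groups overlap, and LINC03061 has the widest spread among control libraries.

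The remaining 15 called members had mean normalized counts under 30 and are named here after their values were seen. The 3 that fell were LINC00562, LINC02606 and LINC00964, with log2 fold changes of -0.99, -0.97 and -0.67. Those that rose were LINC00987, LINC00702, LINC01134, LINC01111, LINC01012, LINC01569, LINC00968, LINC00638, LINC00324, LINC01786, LINC01001 and LINC01293, from 2.20 for the first to 0.62 for the last. Of the 15, 7 lost the call when 1 library was left out, LINC01293 in 5 of 6 leave-outs, LINC01001 and LINC01786 in 4, LINC00964 in 3, and LINC02606, LINC00562 and LINC00968 in 2. LINC01111, which kept it in all 6, had 10.4, 18.0 and 15.5 normalized counts in control and 37.3, 40.8 and 44.2 in knockdown libraries (log2 fold change 1.48 ± 0.24, SE, n = 3 each, edgeR adjusted p = 0.00023). LINC00987, with 4.73, 3.38 and 3.11 in control and 16.1, 19.4 and 18.2 in knockdown libraries, had the largest rise of all members. However, 70.8% of the stranded counts at its locus were on the opposite strand, where the level was 30.7 ± 5.08 in control and 22.7 ± 4.34 in knockdown (SD, n = 3 each). LINC00987, LINC00702 and LINC01134 met the count rule only through the knockdown libraries, so their membership already required a high knockdown level.

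Against protein-coding genes of similar count, the share of members called was lower below 100 counts and higher between 100 and 1000. With a mean normalized count under 30, 15 of 83 members were called (18.1%), compared with 23.1% of 869 protein-coding genes and 16.9% of 782 other lncRNA genes. Between 30 and 100, the shares were 17.4% of 46 members, 26.3% of 1013 protein-coding and 17.8% of 449 other lncRNA genes. Between 100 and 300, they were 26.1% of 23 members, 18.2% of 1360 protein-coding genes and 18.2% of 170 other lncRNA genes. Between 300 and 1000, 5 of 17 members were called (29.4%), LINC01133 among them, beside 10.1% of 2957 protein-coding and 17.9% of 67 other lncRNA genes. None of the 3 members at 1000 or more was called, beside 5.70% of 6366 protein-coding and 10.0% of 20 other lncRNA genes. Each of the upper shares rests on few members, and none of these differences was tested. Without LINC01133, 33 members were called, and without the 4 that met the count rule through 1 group, 31 were, 17 higher and 14 lower.

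Over all counts, 10.9% of 12565 protein-coding genes and 17.3% of other lncRNA genes were called, against the members' 19.8%. The classes were not alike in level, since 129 of the 172 members (75.0%) but only 15.0% of protein-coding genes tested had a mean under 100. The median log2 fold change was 0.12 for the members, 0.17 for other lncRNA genes and -0.011 for protein-coding genes. Positive values were found for 59.3%, 65.7% and 48.3% of them. With library size alone as the scaling, the median of all genes moved from 0.0032 to 0.065, and those of the classes became 0.18, 0.23 and 0.051, so the protein-coding median changed sign and the other class medians did not. By adjusted p alone, 57 members passed, 38 higher and 19 lower, or 33.1%, compared with 48.3% of all genes. The normalized counts of the groups did not overlap for 76 members (44.2%), compared with 57.3% of all genes. The median absolute change was 0.31 for members under 30 counts and 0.47 for protein-coding genes there, whereas between 100 and 300 it was 0.40 and 0.27.

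**Figure D3:**
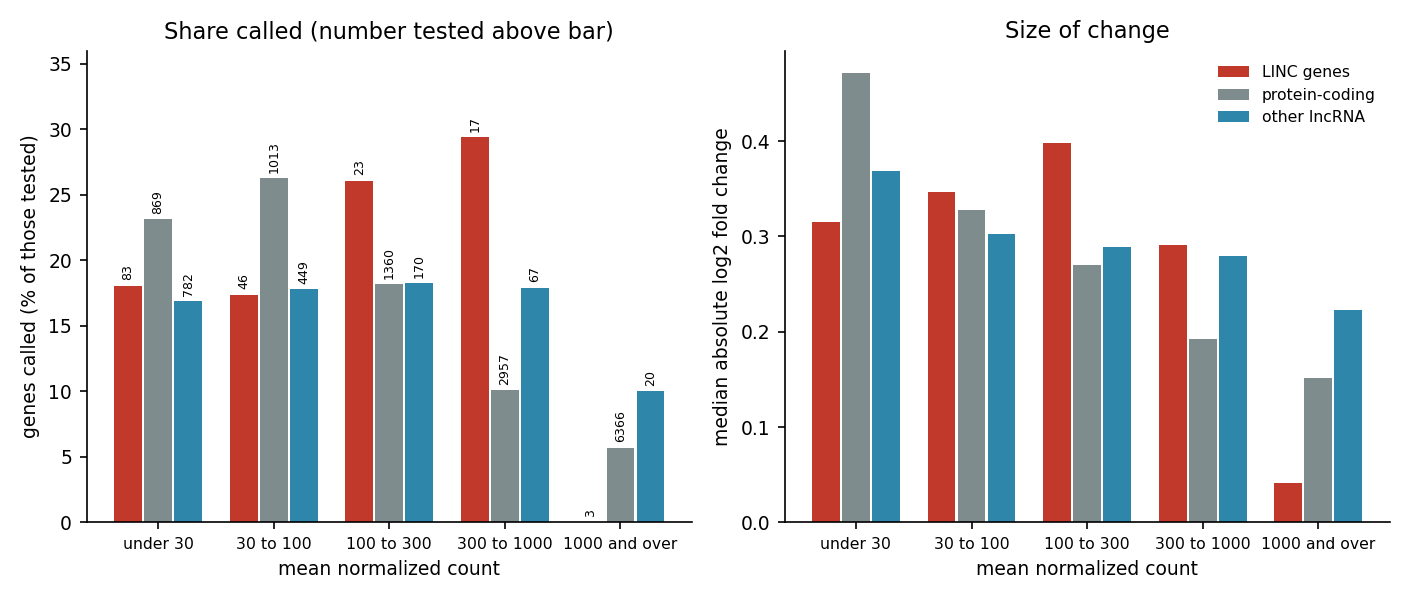
Share of tested genes that were called (left, in percent) and median absolute log2 fold change (right) by bins of mean normalized count, for LINC genes, protein-coding genes and other lncRNA genes, with the number tested above each bar. LINC genes are below protein-coding genes in share under 100 counts and above them from 100 to 1000, where 23 and 17 LINC genes were tested.

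Counts on the members were concentrated in few of them. The 3 most abundant, LINC00963, LINC02693 and LINC00839, took 25.5% of all member counts and the first 12 took 50.8%, while the median control level of the 179 was 29.2. LINC00963, first studied in prostate cancer that has become independent of androgen, had 2665, 2510 and 2730 normalized counts in control and 2815, 2931 and 2819 in knockdown libraries. The groups were separate but close, with a log2 fold change of 0.12 ± 0.042 (SE, n = 3 each, edgeR adjusted p = 0.036) that is far from the fold cutoff. LINC02693 had 1475 ± 43.3 and 1495 ± 47.7, and LINC00839 had 1251 ± 78.3 and 1219 ± 56.2 (SD, n = 3 each), and the libraries of the groups overlapped in both.

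Of the 12 members of highest mean count, 4 were called, LINC01133, LINC00707, LINC01278 and LINC02593. LINC00294 came close, with 857 ± 68.0 and 579 ± 30.5 normalized counts (SD, n = 3 each) and a log2 fold change of -0.57 ± 0.068 (edgeR adjusted p = 1.6e-05). It was called without control replicate 1, at -0.63, and without knockdown replicate 3, at -0.59. LINC00294 is a single-exon gene that overlaps TCP11L1 on the same strand, so unspliced TCP11L1 reads cannot be told apart from its own. TCP11L1 fell from 932 ± 47.1 to 743 ± 42.4 (-0.32 ± 0.059). LINC00205 went from 894 ± 10.7 to 758.5 ± 38.4 (-0.24 ± 0.053), LINC01128 from 526 ± 17.1 to 597 ± 26.4 (0.18 ± 0.062) and LINC00857, known from lung adenocarcinoma, from 470.2 ± 22.8 to 521 ± 4.6 (0.15 ± 0.063). LINC00665, which holds a reading frame reported to encode the micropeptide CIP2A-BP, had 758 ± 17.6 and 754 ± 6.43. Its log2 fold change of -0.0084 ± 0.050 was the smallest of the 12.

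Per length, the members were far below mRNAs. In RPKM, counts scaled by exon length and library size, the median control level was 0.292 for the members and 5.61 for protein-coding genes tested, over median exon lengths of 3937 and 5490 bases. Exon lengths came from GENCODE v44 and the counts from v36, so the order of levels was read only for the 101 members whose gene version was the same in both. Among these, LINC00294 was highest, with 8.02 ± 0.635 in control cells (SD, n = 3), a value that may hold unspliced TCP11L1 reads. LINC00857 and LINC00963 followed with 5.79 ± 0.281 and 5.79 ± 0.248, which do not differ beyond their spread. LINC01963 had 4.90 ± 0.739 and LINC00839 4.59 ± 0.287, again within the spread, and LINC00641 was next with 2.17 ± 0.201. The value for LINC01133, whose gene model was revised, was 6.82 ± 0.106. In v44, 5 members, LINC00680, LINC00674, LINC01881, LINC03006 and LINC00888, are listed as transcribed pseudogenes and the other 174 as lncRNA, and 22 have a single exon.

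Strand mattered for a minority of members. The median share of stranded counts on the opposite strand was 0.781%, and 146 members were under 5%, but 18 were over 20%. At LINC00649 98.6% were on the opposite strand, with 879 ± 34.4 counts there in control and 898 ± 10.3 in knockdown libraries, and at LINC01291 91.0% were, with 172 ± 20.1 and 192 ± 5.51 (SD, n = 3 each). Of the 18, LINC01829 was not tested and LINC00987 was the only one called, whereas 19.8% of all members tested and 11.7% of all genes were called.

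Position was not used to choose the members. Of the 179, 141 lay apart from protein-coding genes, 13 started within 5 kb of a protein-coding gene transcribed in the other direction, 13 overlapped such a gene on the opposite strand and 12 overlapped a protein-coding gene on their own strand. Called higher and called lower were 14 and 10 of the 135 tested that lay apart, 4 and 1 of 13 with a divergent start, 0 and 1 of 12 with an overlap on the opposite strand, and 2 and 2 of 12 with an overlap on the same strand. Over all members tested the shares were 11.6% higher and 8.14% lower, and over all genes 5.3% and 6.43%. Differences between the settings were not tested. The 4 with a divergent start that rose were LINC02593, LINC01475, LINC01786 and LINC01134, and the 1 that fell was LINC01133. The median log2 fold change was 0.26 with a divergent start and 0.091 for those apart.

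The nearest protein-coding gene was tested for 134 members. No limit was set on its distance, which was 1411315 bases at LINC00662, so a neighbour, or a gene beside a member, need not be close. The log2 fold change of the nearest gene had the same sign as that of the member in 67 of the 134. Across these genes, which share the libraries, Pearson's r between the log2 fold changes was 0.17. Within the settings r was 0.073 for 103 members apart, 0.48 for 12 with a divergent start, 0.40 for 11 with an overlap on the opposite strand and 0.60 for 8 with an overlap on the same strand, values that rest on few genes and were not tested. Of the called members with a tested neighbour, 7 of 9 that fell had a neighbour of the same sign, with a median of -0.39 for the neighbours, and 6 of 16 that rose did, with a median of -0.026. Over all 134 members the median of the neighbours was -0.068. The neighbour itself was called beside 15 members (11.2%), 11 times lower and 4 times higher, and 10.9% of all protein-coding genes were called. In 3 of these 15 pairs the member was called too, in the direction of its neighbour, and over all members 19.8% were called.

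These 3 pairs were LINC00562 with SUCLA2, LINC02606 with SPSB1 and LINC01786 with SCNN1D. SUCLA2, a subunit of succinyl-CoA ligase in mitochondria, had 3160 ± 90.1 normalized counts in control and 1811 ± 53.1 in knockdown cells (SD, n = 3 each; log2 fold change -0.80 ± 0.041, edgeR adjusted p = 8.3e-09). LINC00562 is a single-exon gene that overlaps it on the same strand and fell from 20.8 ± 5.07 to 10.3 ± 1.56, so unspliced SUCLA2 reads cannot be told apart from its own. SPSB1, an adaptor of ubiquitin ligases, fell from 953 ± 108 to 627 ± 42.3 (-0.61 ± 0.079), and LINC02606, 55562 bases away, from 20.8 ± 3.31 to 10.5 ± 2.01. SCNN1D, a subunit of epithelial sodium channels, rose from 129 ± 28.8 to 199.6 ± 24.2 (0.62 ± 0.15), and LINC01786, whose start is 16 bases away, from 9.81 ± 2.99 to 18.9 ± 1.78. DESeq2 called none of these 3 LINC genes, and besides the losses given above, SPSB1 lost its call without control replicate 1, control replicate 2 or knockdown replicate 1 and SCNN1D without control replicate 2, control replicate 3 or knockdown replicate 3, at log2 fold changes of -0.56 for SPSB1 and 0.51 to 0.55 for SCNN1D.

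The other neighbours of called members moved less. SOCS5, 36452 bases from LINC01119, had a log2 fold change of -0.39. PKDCC, 113361 bases from LINC01914, had -0.42, and ANXA8L1, 6578 bases from LINC00842, had -0.45. The annexin gene ANXA8L1 has a near-identical copy, ANXA8, so its count is uncertain. SAMD11 beside LINC02593 and SPIN4, which overlaps LINC01278, both had 0.26. Beside LINC00511, the zinc transporter gene SLC39A11 was at 0.15, and beside LINC01963, the Ku80 gene XRCC5 was at -0.17, while RALA beside LINC00265 was at -0.15. RHOF beside LINC01089, at -0.17 ± 0.13, and NKX2-3 beside LINC01475, at -0.16 ± 0.24, did not pass the test (edgeR adjusted p = 0.30 and 0.60), and their direction did not hold, since RHOF was at 0.88 with unstranded counts and NKX2-3 ran from -0.34 to 0.13 over the leave-outs.

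In the other 12 pairs with a called neighbour the LINC RNA was not called. KCNJ12, a potassium channel gene 8393 bases from LINC02693, was at -0.72 on the log2 scale, whereas LINC02693 was at 0.021. The group levels of KCNJ12 were 415 ± 39.1 and 252 ± 22.9 (SD over 3 libraries). The transcription factor gene CEBPB, which is nearest to both LINC01270 and LINC01273, had -0.73 and lost its call without control replicate 1, at -0.58, and those members had -0.11 and 0.22. ZFP36L2, an mRNA decay factor whose start is 604 bases from that of LINC01126, had -0.86 beside 0.26. The largest rise of a neighbour was that of CDH5, a cadherin of endothelial cells, from 63.4 ± 4.55 to 174 ± 17.8 (log2 fold change 1.45 ± 0.13, edgeR adjusted p = 1.4e-06), and LINC00920 beside it had 0.42 ± 0.13 (adjusted p = 0.018), which passes the p but not the fold cutoff.

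**Figure D4:**
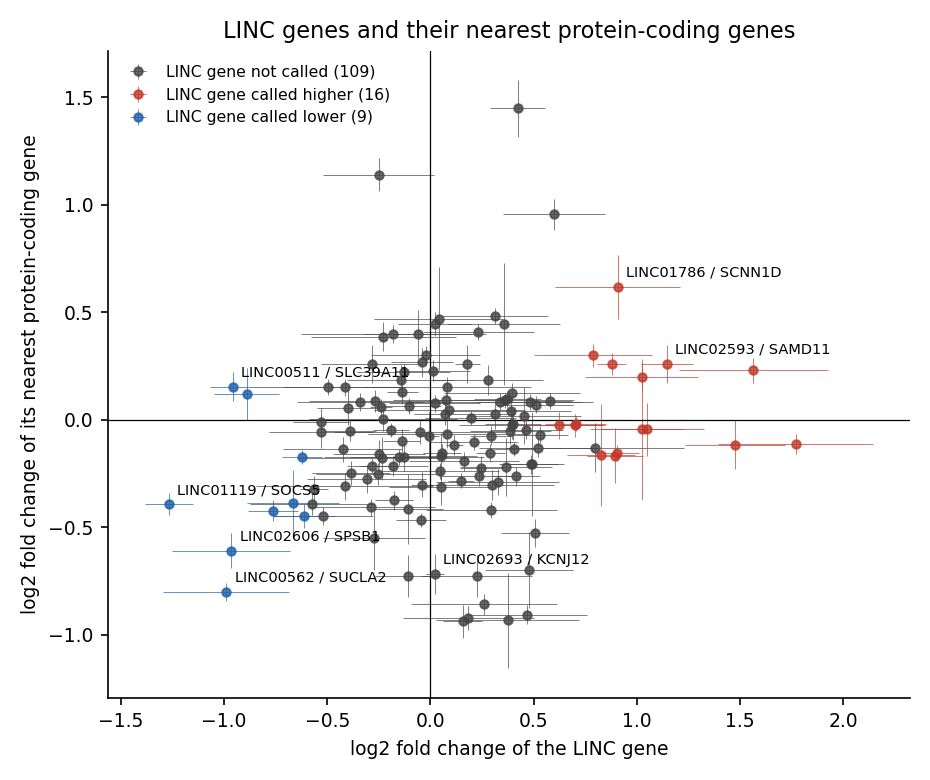
Log2 fold change of the nearest protein-coding gene against that of the LINC gene for the 134 LINC genes whose neighbour was tested, with standard errors as bars and colours for the call of the LINC gene. Of the 9 LINC genes called lower, 7 have a neighbour below 0, whereas most of the neighbours with large changes sit beside LINC genes that were not called.

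Members also lay near each other. Within 100 kb of another member were 14 genes in 6 clusters. In 3 of the clusters 1 member was called and in none more than 1, while 19.8% of all members tested were called. At the start of chromosome 1, LINC02593 rose by 1.15 on the log2 scale while LINC01409, LINC00115 and LINC01128 had -0.18, -0.28 and 0.18. LINC01118 overlaps LINC01119 on the same strand, so reads in any shared exon could have been left out of both counts. LINC01118 had 42.2 ± 16.7 normalized counts in control (SD, n = 3) and a log2 fold change of -0.57 ± 0.30 (SE, edgeR adjusted p = 0.13), beside -1.27 for LINC01119. LINC01291 had 0.40 ± 0.26 beside 0.62 ± 0.23 for LINC01293.

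Other lncRNAs with names of their own were read from a list of 40, of which 32 were tested and 7 called (21.9%, beside 11.7% of all genes). By adjusted p alone 13 were higher and 7 lower, beside 23.3% and 25.0% of all genes. NEAT1, the scaffold of nuclear paraspeckles, MEG3, an imprinted RNA, and CRNDE were higher, with log2 fold changes of 0.59, 0.72 and 1.03, though NEAT1 lost its call without control replicate 2, control replicate 3 or knockdown replicate 3. H19, also imprinted, MIAT and MIR31HG were lower, with -1.30, -0.96 and -0.88. KCNQ1OT1 was called at -0.92, but it varied widely in control libraries (348 ± 216, SD, n = 3), ranged from -1.22 to -0.32 over the leave-outs and was not called by DESeq2, nor when control replicate 2 or knockdown replicate 2 or 3 was left out. MALAT1, a nuclear speckle RNA, had 0.27 and was not called. The median of the list was 0.15. Of 31 genes of nuclear RNA decay and export, 30 were tested, and by both cutoffs none was called higher and 2 were called lower (6.67%, beside 11.7% of all genes), the exosome subunit EXOSC5 at -0.61 and the export adaptor ALYREF at -0.64. By adjusted p alone 7 were higher and 9 lower, beside 23.3% and 25.0% of all genes, and the median of the list was 0.0095. EXOSC5 was not called in 4 of 6 leave-outs, without control replicate 1 or 3 or knockdown replicate 2 or 3, and ALYREF was not called without control replicate 1. Of 7 LINC genes reported to encode a micropeptide, some now listed under other symbols, 6 were tested. LINC00467 was the only one called (16.7%, beside 11.7% of all genes).

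At the edge of the count rule, the third highest count was exactly 10 for 13 members and 9 for 13 LINC rows that were left out. LINC01252, with 12, 15 and 9 counts in control and 8, 10 and 9 in knockdown libraries, was inside, and LINC00663, with 9, 11 and 8 and 6, 14 and 7, was outside. The 7 members that the expression filter left untested were LINC02298, LINC01909, LINC02412, LINC01337, LINC00310, LINC01829 and LINC02872. A row at 0 need not mean an absent RNA. Between HLA-F and DAXX on chromosome 6, 56 of 149 protein-coding rows were at 0 in all libraries, among them DDX39B, a helicase that cells in general use, and 4 of the 5 LINC rows there were at 0.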

How the data were processed

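Poly-A RNA of 12Z cells was sequenced as paired reads of 125 bases, 3 control and 3 knockdown libraries. Per the labels and methods, the authors aligned the reads to GRCh38.p13 with STAR 2.7.6a and GENCODE v36 and deposited whole-number counts per gene. The column for reads on the reverse strand held 93.9% to 94.1% of stranded counts and was used. Symbols and positions came from GENCODE v44 by gene ID, and 60419 of 60660 rows matched. Counts of all genes were tested with edgeR 4.0.16 (filterByExpr, TMM, quasi-likelihood test) in R 4.3.3, with Benjamini-Hochberg adjustment over 15155 genes. DESeq2 1.42.0 was an alternative. Bins of mean count were described, not tested. On simulated counts of 14979 genes the test recovered 194 of 200 planted changes and made 24 false calls, both by adjusted p alone. Changes were planted only in genes of higher count, so the recovery does not describe members under 30 counts. Depth was 27742562 to 37551194 counts per library, which limits members under 30 counts. Reads mapping to several places are not counted, so genes with near-identical copies are uncertain. Named genes were members called whose mean normalized count reached 30 (at most 16 per direction), the 12 highest members, the micropeptide list and their neighbours. Genes named by another rule, such as low members, called neighbours and clusters, were chosen after their values were seen. Members and lists were chosen with earlier results of these data known. The lists of epithelial, stromal, endothelial and leukocyte markers were read for levels, and the 5 endothelial markers held 1594 to 1625 normalized counts in control and 1114 to 1185 in knockdown libraries. KDR held most of this sum, with means of 1519 and 950, and was called lower at -0.68. CDH5 went the other way and was called higher at 1.45, whereas VWF, at 0.29, was not called. PECAM1 and TEK stayed under 10 counts in every library.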

Additional observations from a re-analysis of the deposited data

Results flagged for a closer look

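Counts on the strand opposite to a LINC gene were outside the comparisons above. At 2 of the 18 members where over 20% of stranded counts were opposite, they were higher in each knockdown library than in each control library. For comparison, sense-strand counts of the groups did not overlap, in either direction, for 57.3% of all genes tested. At LINC01389 the opposite-strand level was 6.25 ± 1.34 normalized counts in control and 11.0 ± 1.12 in knockdown libraries, and at LINC01829 it was 6.59 ± 2.43 and 14.7 ± 3.71 (SD, n = 3 each). Both were noticed because they lay above the control level, were not tested, and are close to the smallest levels counted here.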

How the results depend on the processing

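LINC01133 stayed called in every alternative, between -2.65 and -2.61 when 1 library was left out. The 34 called members became 12 (6 higher, 6 lower) when the fold change itself was tested against 1.5 with glmTreat, and 57 (38 higher) by adjusted p alone, while all genes called went from 1778 to 578 and 7315. With 10 counts required in every library 11 members were called higher. DESeq2 called 27 members, all among the 34, and gave no adjusted p for 7. Leaving out 1 library gave 33 to 36 called members, 17 to 23 higher and 11 to 16 lower, and 1641 to 1815 genes in all. Apart from glmTreat, 18 members were called in every alternative fit, 9 in each direction. The fit with 10 counts required in every library tested only 128 members, so the rest could not be among these 18. In the main fit and all 6 leave-outs, 25 members were called, 16 higher and 9 lower. RHOF turned from -0.17 to 0.88 with unstranded counts, where reads of both strands are summed. Replicate numbers did not pair the libraries (correlations of deviations -0.015, 0.0049 and 0.057), and a replicate block called 33 members, all among the 34. Alternatives that left out LINC01133, members with opposite-strand counts or members met through 1 group were chosen after seeing the data. Depth limits members under 30 counts.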
